A study of Mus musculus with 3 samples.

Results

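The 9 genes described here regulate spermatogonia, the premeiotic germ cells of the testis: Stra8, Dazl, Kit, Gfra1, Zbtb16, Sohlh1, Sohlh2, Nanos2 and Nanos3. They were chosen by name, and a small RNA was counted for a gene where its whole sequence, without a mismatch, stood in a GENCODE vM21 transcript of that gene on the listed chromosome, with sense and antisense matches kept apart. Of 2219118 distinct small RNA sequences in the deposited list, 1209 were sense and 18 antisense to the 9 genes. That is 0.0545% of the list in the sense direction, from 9 of 21951 protein-coding genes. The small RNAs came from 3 immunoprecipitates of C57BL/6 mouse testes, 1 library in each group: Mili (Piwil2, a Piwi protein) from Tdrd1 knockout testes at 15 days after birth, Tdrd1 (a Tudor-domain protein that binds Mili) from adult testes, and Mili from adult wild-type testes. The knockout allele and the genotype behind the Tdrd1 precipitate are not given in the labels, and the knockout library differs from the others in age as well as in genotype. The list pools the libraries and names neither library nor read number, so no group could be set against another and each value below describes the pool, with an abundant and a rare small RNA weighing the same. There are no replicates. Intervals are 95% intervals that cover counting error only, and neighbouring small RNAs of 1 transcript share their source.

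Piwi proteins of germ cells carry piRNAs, small RNAs that typically begin with uridine and are cut from long single-stranded precursors, among them many mRNAs. In the testis, undifferentiated spermatogonia are kept by signals such as GDNF, which they receive through a receptor complex that includes GFRA1, and by the transcription factor ZBTB16 (also called PLZF) and the RNA-binding protein NANOS2. On differentiation they express the receptor KIT and the transcription factors SOHLH1 and SOHLH2, and retinoic acid then induces STRA8 at entry to meiosis. DAZL and NANOS3 are RNA-binding proteins of early germ cells.

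An example small RNA of each gene follows. The examples were picked by a rule and do not stand for the shares of first bases or lengths given further on. For each gene the 5′ end with most listed 3′ ends is shown, by its longest form of at most 30 nt, read 5′ to 3′ as deposited, with T standing for U and the first base in capitals, because the first base is the mark by which these small RNAs are compared further on.
Stra8: Taggacaaagattcatattcaggaacagga
Dazl: Tataatgacgtggatgtgcagaagatagta
Kit: Tgaacctggaagaagtgatcgtttgcactt
Gfra1: Tgaagactcatacattgaataaacatattc
Zbtb16: Tagtatcactagtcactgttggcaccaccc
Sohlh1: Tgagactcaggacagcttgcagacctcatc
Sohlh2: Tgtgacgttgtaagaatgggctaaactca
Nanos2: Tgacatgtggagagactactttaacctg
Nanos3: Tacaccacccggaattctgcaggcaaaaag

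All 9 start with U. Those of Stra8 (chr6:34880375-34880404, plus strand, mm9), Dazl (chr17:50427439-50427468, minus), Sohlh1 (chr2:25702328-25702357, minus), Nanos2 (chr7:19572971-19572998, plus) and Nanos3 (chr8:86700041-86700070, minus) come from coding sequence. Those of Kit (chr5:76052209-76052238, plus), Gfra1 (chr19:58310999-58311028, minus), Zbtb16 (chr9:48463621-48463650, minus) and Sohlh2 (chr3:55013038-55013066, plus) come from the 3′ untranslated region. The 5′ ends shown for Dazl and Sohlh1 were listed with 7 different 3′ ends each, that of Stra8 with 6, those of Kit, Zbtb16 and Nanos3 with 5, those of Gfra1 and Sohlh2 with 4 and that of Nanos2 with 3. These forms ranged from 22 nt (Gfra1) to 31 nt (Stra8 and Sohlh1), and each 5′ end held between 1.76% (Zbtb16) and 17.6% (Nanos2) of its gene's sense sequences.

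All 9 genes had sense sequences, as did 71% of all protein-coding genes. At least 50 were found for 8 of the 9, against 27.3% of protein-coding genes, and the exception was Nanos2. Dazl had 311 sense sequences, Zbtb16 284, Stra8 160, Kit 141, Gfra1 96, Sohlh1 95, Nanos3 55, Sohlh2 50 and Nanos2 17. Because long transcripts offer more places for a small RNA, the genes are compared per kb of exon, all annotated exons of a gene merged.

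The median of the 9 genes was 53.8 distinct sense sequences per kb, against 2.89 over all 21951 protein-coding genes and 7.53 over those with a sense sequence. Stra8 stood first with 88.7 per kb (75.5 to 104), above 98.6% of protein-coding genes. Dazl followed with 81.4 (72.6 to 91.0) and Sohlh1, a basic helix-loop-helix factor, with 73.7 (59.6 to 90.1). Nanos3 had 59.5 (44.8 to 77.5) and Zbtb16 53.8 (47.7 to 60.4). These 5 genes lay above 96.0% or more of protein-coding genes, and the intervals of neighbours in their order overlapped. The order depends on the length used. All 311 sequences of Dazl lay in its coding transcript of 2976 nt, whereas its merged exons measure 3820 nt. Stra8 measures 1803 nt by both lengths, and per kb of coding transcript Dazl would stand above it.

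The other 4 genes were sparser. Sohlh2, the partner of Sohlh1, had 21.2 sense sequences per kb (15.7 to 27.9), Gfra1 17.5 (14.2 to 21.4) and Kit 15.8 (13.3 to 18.7). Nanos2 had 10.9 (6.34 to 17.4), above 71.7% of protein-coding genes. The intervals of neighbours overlapped here too, whereas between Zbtb16 and Sohlh2 they did not. All 141 sequences of Kit lay in a coding transcript of 5241 nt, whereas its merged exons measure 8911 nt. Per kb of coding transcript Kit would stand above Sohlh2 and Gfra1. In pooled testis RNA, few cells with many small RNAs and many cells with few cannot be told apart, so a density says nothing of the level in a spermatogonium.

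**Figure D1:**
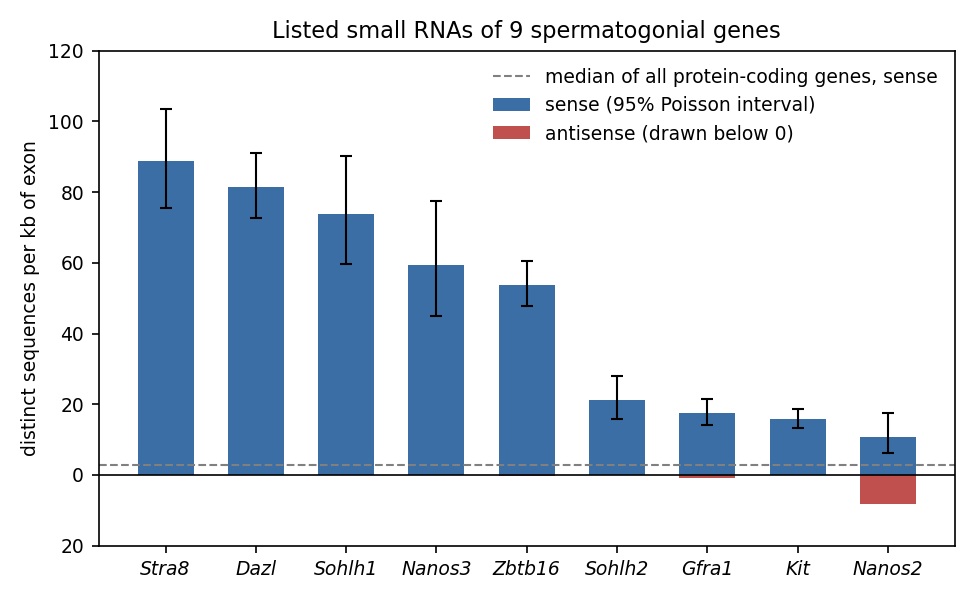
Distinct sense (upward) and antisense (below 0) sequences per kb of merged exon for the 9 genes in order of sense density, with 95% Poisson intervals; the dashed line is the median of all protein-coding genes, 2.89. Stra8 and Dazl stand highest with 88.7 and 81.4, and Nanos2 is lowest with 10.9 and has nearly as many antisense sequences, 8.32 per kb.

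Genes that share a pathway or a cell type with the 9 were counted the same way. The 18 other factors of spermatogonial stem cells and progenitors all had sense sequences, with a median of 15.2 per kb. Lin28a (96.8 per kb), which binds let-7 precursors, Sall4 (75.7), a zinc finger factor, and Foxo1 (60.1), a forkhead factor, were highest, and Id4 (3.12), an inhibitor of helix-loop-helix factors, and Eomes (2.17), a T-box factor, lowest. All 11 genes of retinoic acid signalling and meiotic entry found in the annotation, of 12 listed, had sense sequences (median 10.8). Among these the DM-domain factor gene Dmrt1 had 51.7 per kb, Meioc, needed for meiotic prophase, 36.6, and Dmrtb1 35.5, whereas Rdh10, an enzyme of retinoic acid synthesis, had 6.01 and the retinol carrier receptor gene Stra6 0.515.

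Ligands made by the surrounding cells were lower, with a median of 1.76 per kb over 8 genes. Cxcl12 (12.5), Fgf2 (10.8) and Gdnf (6.53), the ligand of the GFRA1 receptor complex, were highest, Wnt5a had 0.383, and 0 sequences matched Inhba. Relatives of the 9 genes had a median of 8.63 per kb over the 12 found of 13 listed. Nanos1 had 99.8 per kb, more than either Nanos2 or Nanos3, while Gfra4 (25.9) and the Dazl relative Boll (20.5) followed, and 0 sense sequences matched Gfra2 and Flt3, a receptor related to Kit. Dmrt1 and Rarg stand in both of the first lists, and no test was made between lists.

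Marker lists of other testis cells place these values. The 8 spermatocyte markers had a median of 58.4 sense sequences per kb (3.57 to 165), and the 8 spermatid markers 13.3 (0.274 to 82.4). The 8 Sertoli markers had a median of 1.50 (0 to 2.99, with Rhox5 at 0), the 7 Leydig markers 0.208 (0 to 19.0, with Lhcgr, Hsd3b6 and Cyp17a1 at 0), the 5 peritubular myoid markers 0.455 (Myh11 at 0), the 4 macrophage markers 0.0866 (Lyz2 and Adgre1 at 0) and the 4 endothelial markers 0.505. The 9 spermatogonial genes, from 10.9 to 88.7, thus overlapped in range with the spermatocyte and spermatid markers and all stood above every Sertoli, myoid, macrophage and endothelial marker listed. Among the Leydig markers Star and Insl3 fell inside their range.

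The sequences lay unevenly along the transcripts. Positions were taken in the longest coding transcript of each gene, which held 1200 of the 1209 sense sequences, and a sequence was given to the part that holds its midpoint. Over the 9 genes the 3′ untranslated region held 57.0% (54.1 to 59.8%), against 46.8% of the transcript length. Coding sequence held 39.8% (37 to 42.6%), against 46.1% of the length, and the 5′ untranslated region 3.25% (2.32 to 4.42%), against 7.08%. Over all protein-coding genes the 3′ untranslated region held 51.5% of sequences and 43.2% of length.

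The list holds almost no sequence that crosses an exon junction: 15 of the 1200 did, by at most 3 nt on the shorter side. Coding sequence, with many junctions, therefore offers fewer places than its length implies. Of the places where 27 nt fit without crossing a junction by more than 3 nt, 49.6% lay in the 3′ untranslated region and 43.7% in coding sequence. The density in the 3′ untranslated region was 1.41 times that in coding sequence by length (1.26 to 1.59), and 1.26 times by such places. Without Dazl, the gene with most sequences, it was 1.25 times by length.

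The genes split by where their small RNAs lie. In Kit, Gfra1, Zbtb16 and Sohlh2 the 3′ untranslated region was denser than coding sequence, with intervals that did not overlap. Kit had 42.7 sense sequences per kb of 3′ untranslated region (34.5 to 52.3) and 13.7 per kb of coding sequence (9.76 to 18.6). Gfra1 had 28.3 (22.4 to 35.3) and 8.53 (4.41 to 14.9), and Zbtb16 71.0 (61.5 to 81.5) and 35.6 (27.9 to 44.8). Sohlh2 had 42.3 (30.1 to 57.9) and 7.83 (3.91 to 14.0), a 3′ untranslated density close to that of Kit.

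In the other genes the intervals overlapped. Dazl had 120 per kb of 3′ untranslated region (105 to 137) and 88.1 per kb of coding sequence (69.7 to 110). Stra8 had 109 (65.7 to 171) and 110 (91.9 to 131), and 130 of its 160 sequences came from coding sequence, which measures 1182 nt against 174 nt for its 3′ untranslated region. Sohlh1 had 43.2 (17.4 to 89.0) and 79.1 (63.2 to 97.9), and Nanos3 98.8 (57.6 to 158) and 68.9 (48.5 to 95). Nanos2, with 6 and 11 sequences, had 6.34 (2.33 to 13.8) and 26.8 (13.4 to 47.9), the reverse order.

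**Figure D2:**
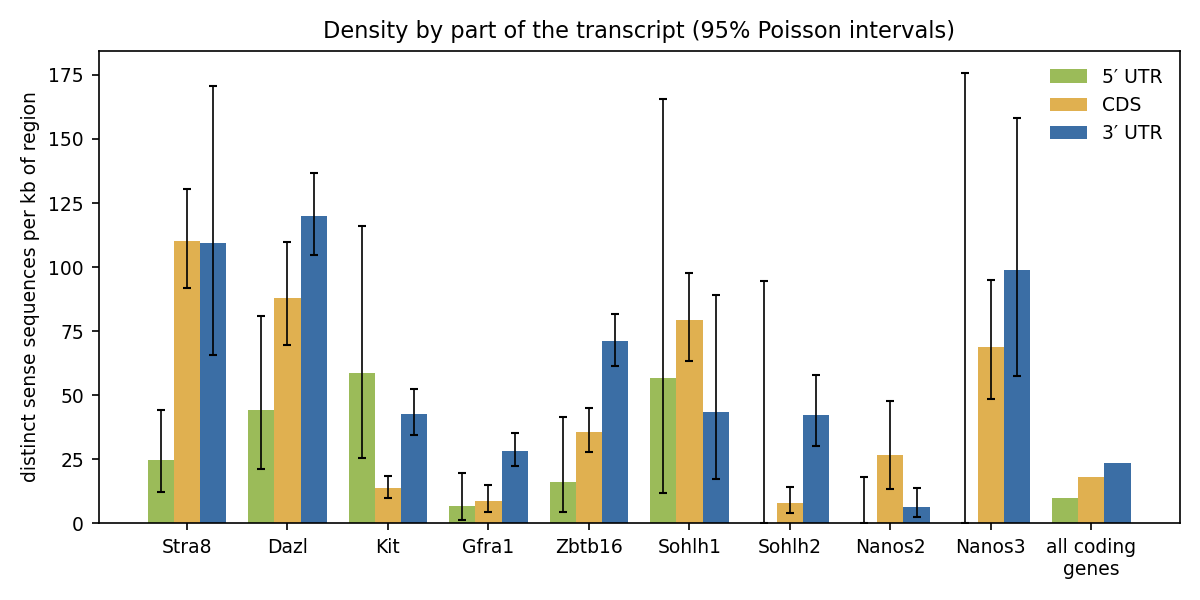
Distinct sense sequences per kb of the 5′ untranslated region, coding sequence and 3′ untranslated region in 1 coding transcript of each gene, with 95% Poisson intervals, and over all protein-coding genes without intervals (9.91, 17.9 and 23.6 per kb). Kit, Gfra1, Zbtb16 and Sohlh2 have a denser 3′ untranslated region than coding sequence, while Stra8 has 109 and 110 per kb.

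Within these parts there were dense stretches and gaps. In Dazl 65.6% of the transcript was covered by at least 1 sense sequence, and the longest gap was 96 nt. The stretch from 2201 to 2250 of its transcript, in the 3′ untranslated region, held 47 starts, 15.1% of the gene's sequences. Zbtb16 was covered over 49.4%, Sohlh1 and Stra8 over 47.6% and 47.5%, and Nanos3 over 43.0%. Kit was covered over 29%, Gfra1 over 27.1%, Sohlh2 over 24.7% and Nanos2 over 15.9%, with a longest gap of 615 nt.

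Single exons carried much of the signal. The last exon of Zbtb16 (3075 of 5114 nt) held 210 of its 278 sequences. That of Dazl (1915 of 2976 nt) held 234 of 311 and that of Gfra1 (2943 of 4641 nt) 79 of 94. These exons also make up most of their transcripts. Per kb, exon 4 of Dazl (442, with 23 sequences in 52 nt) was denser than the last exon (122). Exon 3 of Zbtb16, with only 7 sequences in 98 nt, had 71.4 per kb, close to the 68.3 of the last exon. In Gfra1 the last exon was the densest (26.8). Kit spreads over 21 exons, and exon 21 (2309 nt), which holds the end of the coding sequence and the whole 3′ untranslated region, had 93 of 141 sequences (40.3 per kb, 32.5 to 49.3). Exons 1 to 16 had 16.5 per kb (11.8 to 22.3) and exons 17 to 20 15.9 (6.38 to 32.7). Haploid germ cells are known to make a shorter Kit mRNA from an internal promoter, which shares the last exons. Within exons 17 to 20, exon 20 (106 nt) had 6 of the 7 sequences and exon 17 (123 nt) the other. In Stra8, exon 6 (288 nt) and exon 7 (286 nt) held 57 and 36 of 160 sequences, whereas exon 2 (418 nt), which lies wholly in the 5′ untranslated region, held 11.

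**Figure D3:**
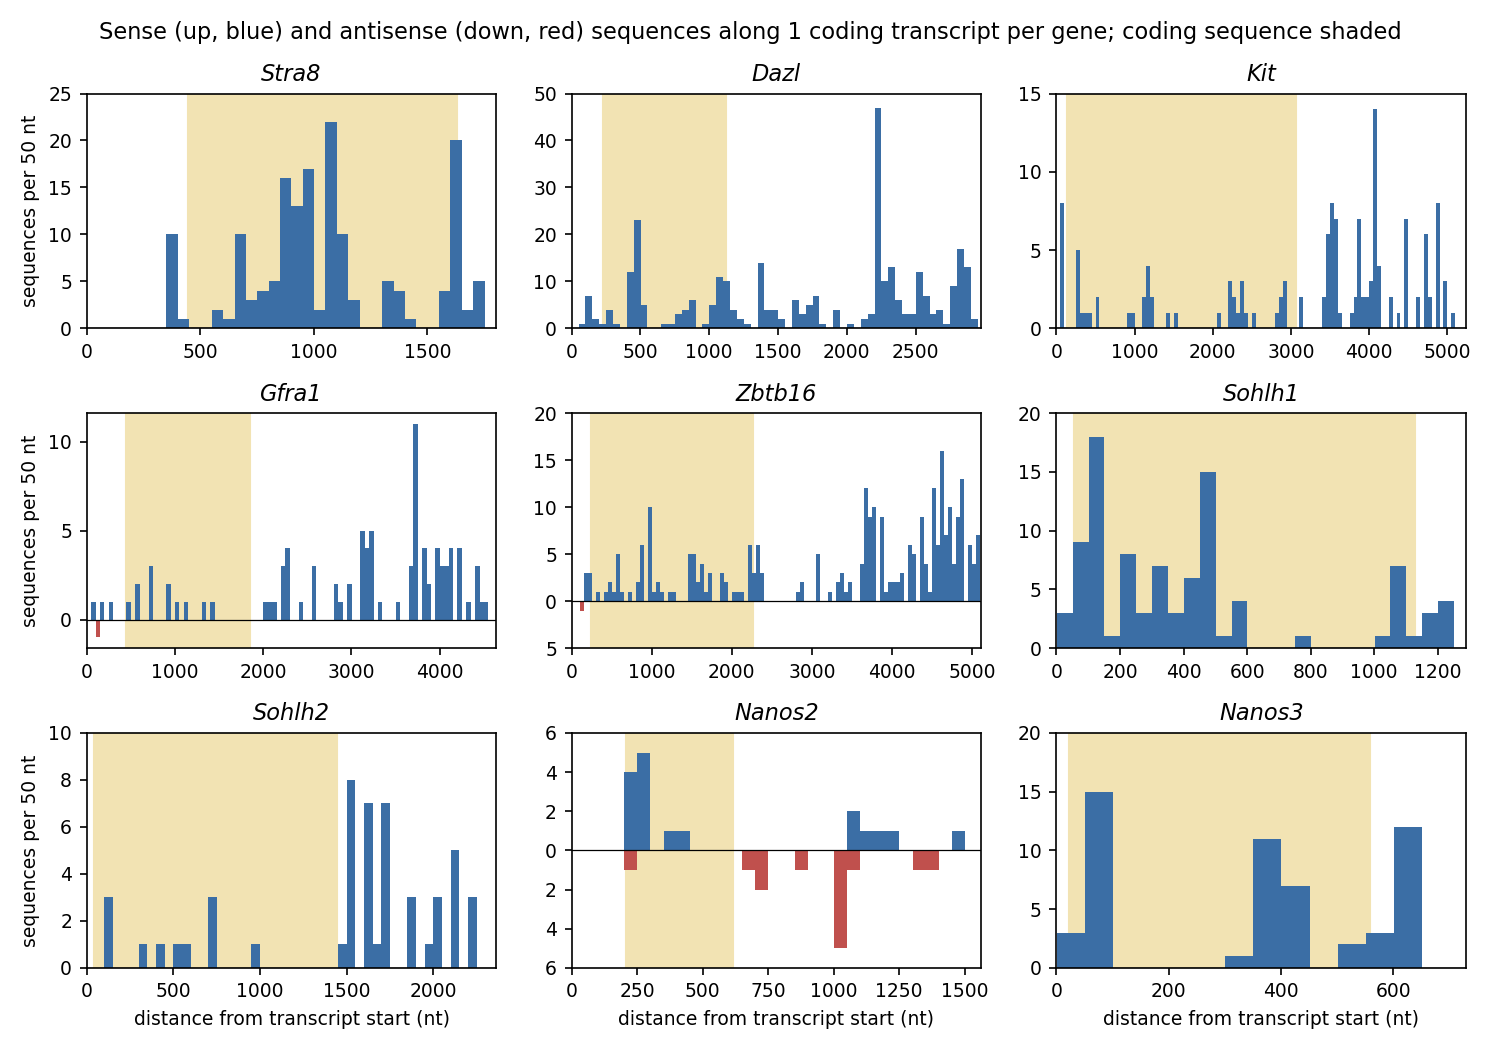
Number of sequences starting in each 50 nt of 1 coding transcript per gene, sense upward and antisense downward, by the leftmost base on the transcript; the shaded box is the coding sequence. Dazl shows a peak of 47 from 2201 nt, and Kit, Gfra1, Zbtb16 and Sohlh2 are dense behind the coding sequence. The antisense sequences of Nanos2 lie mostly in its 3′ untranslated region. Of the 4 antisense sequences of Gfra1, 3 lie outside the transcript drawn.

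Uridine was the most common first base, but not to the same degree. Of the 1199 sense sequences of 24 to 32 nt, 69.3% started with U (66.6 to 71.9%), 13.9% with A, 9.76% with G and 7.01% with C, against 67.7% U over all protein-coding genes. U makes up 25.3% of the bases of the 9 transcripts. Giving every 5′ end a weight of 1 lowered the share to 63.1%. Stra8 had the lowest share, 49.4% (41.4 to 57.4%), with 24.4% G as the next most common first base. Only 8.97% of the 6001 protein-coding genes with 50 or more sense sequences had a lower one.

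Sohlh1 with 57.0% (46.3 to 67.2%) and Nanos3 with 58.2% (44.1 to 71.3%) came next, then Kit with 66.4%, Dazl with 72.9%, Zbtb16 with 77.7% and Sohlh2 with 78.0%. Gfra1 reached 81.1% (71.7 to 88.4%), more than 93.0% of those genes, and Nanos2 88.2% on 17 sequences (63.6 to 98.5%). The intervals of Stra8 and Gfra1 did not overlap. The 3 genes lowest in U had the shortest 3′ untranslated regions, 162 to 174 nt, and most of their sequences in coding sequence, which was also true of 11 of 17 in Nanos2. In 2 of these 3 genes the share starting with U was lower in the 3′ untranslated region than in coding sequence, with intervals that overlapped. In Sohlh1 it was 2 of 7 (28.6%, 3.67 to 71.0%) there and 49 of 83 (47.7 to 69.7%) in coding sequence. In Nanos3 it was 8 of 17 (47.1%, 23.0 to 72.2%) there and 23 of 37 (62.2%, 44.8 to 77.5%) in coding sequence. Stra8 had the reverse order, 13 of 19 (68.4%, 43.4 to 87.4%) there and 61 of 130 (46.9%) in coding sequence, also with overlapping intervals. Over the 9 genes U started 77.0% of sequences in the 3′ untranslated region (73.7 to 80.1%), 58.8% in coding sequence (54.2 to 63.2%) and 57.9% in the 5′ untranslated region (40.8 to 73.7%), close to the 75.2%, 59.4% and 62.5% over all protein-coding genes. U is also more frequent among the bases of 3′ untranslated regions, for example 28.7% in Stra8 and 27.2% in Zbtb16, than of coding sequence, 19.0% and 18.4%. Within coding sequence Stra8 also had the lowest share, 46.9% (38.1 to 55.9%). Kit came next with 53.8% (37.2 to 69.9%), and Zbtb16 had 63.9% (51.7 to 74.9%), all with overlapping intervals. The intervals of Dazl (67.9%, 56.4 to 78.1%) and Nanos2 (90.9%, 58.7 to 99.8%) lay above that of Stra8.

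Where piRNAs are cut head to tail from a precursor, the base after the 3′ end tends to be U and the next 5′ end tends to follow at once. The base after the 3′ end was U for 23.8% of sense sequences (21.4 to 26.3%), against 25.3% U in the transcripts and 26% over all protein-coding genes. Per gene it ranged from 13.0% in Nanos3 (5.37 to 24.9%) to 31.2% in Dazl (26.1 to 36.7%), whose transcripts hold 21.1% and 31.8% U. Stra8 had 14.4% (9.34 to 20.8%), below the 21.9% U of its transcript, and it was the only gene of the 9 whose interval did not include that share. The coding sequence of Stra8, which held 130 of its 160 sequences, has 19.0% U, inside the interval. A 5′ end lying 1 nt behind the 3′ end of another sequence was found in 119 pairs, against 110 ± 11.3 (SD) at the 19 distances from 2 to 20 nt, of which the highest had 135. Without Dazl the ratio to that mean was 0.785, against 1.08 with it. The ratio of pairs over all protein-coding genes was 1.01. Many mouse piRNAs are known to be trimmed at the 3′ end after the first cut, and the list gives the ends of the RNAs that were sequenced.

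**Figure D4:**
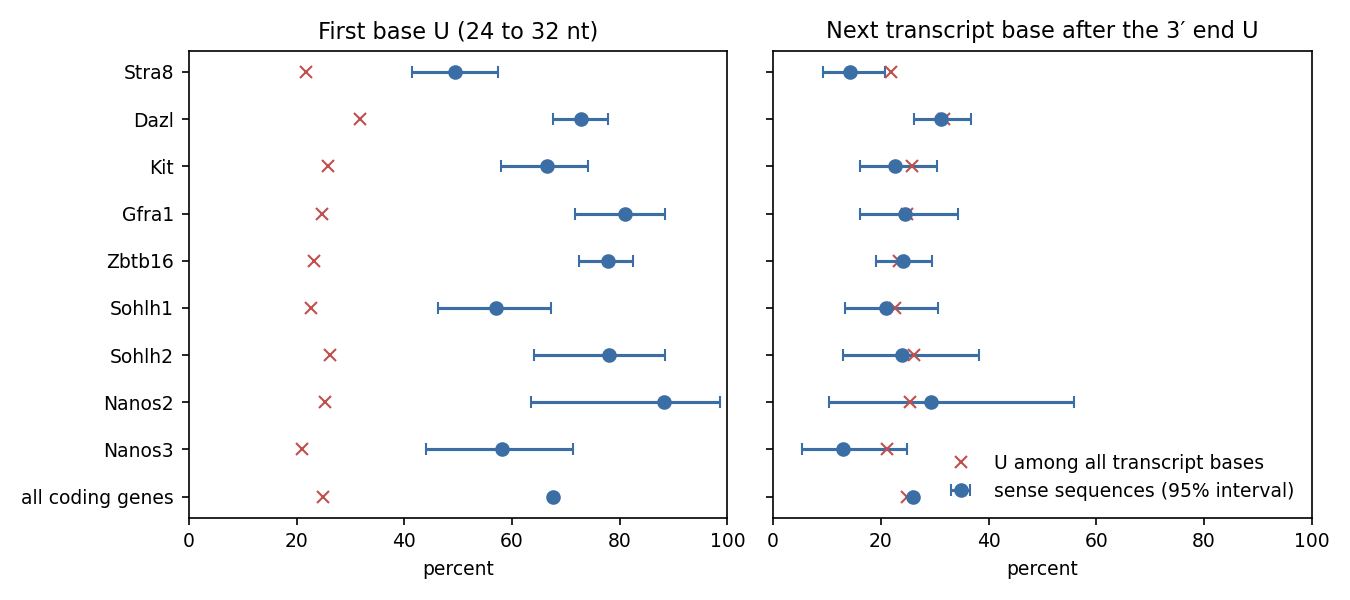
Left, percent of sense sequences of 24 to 32 nt that start with U; right, percent followed by U in the transcript; points with 95% Clopper-Pearson intervals for each gene and for all protein-coding genes, and crosses for the share of U among the transcript's bases. First-base shares run from 49.4% (Stra8) to 88.2% (Nanos2), all above the transcript's U share, whereas the next-base intervals include it in 8 of the 9 genes and lie below it in Stra8. The next-base interval of Stra8 includes the 19.0% U of its coding sequence.

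The sizes were those of the pool. The sense sequences measured 22 to 33 nt with a mean of 27.4 nt, as over all protein-coding genes (27.4 nt). The labels name about 28 to 30 nt for the RNA eluted from the gel. Of the sense sequences 77.2% measured 24 to 28 nt, and 28 nt, the length common to both ranges, alone held 21.7%. The most common length was 27 nt in 7 genes and 26 nt in Nanos3 (where 26, 27 and 28 nt had 13 sequences each). Dazl differed, with 28 nt most common (78 of 311) and 30.2% at 29 to 32 nt (25.2 to 35.7%). The other 8 genes together had 19.2% at these lengths, and all protein-coding genes 23.3%. Of the 6001 genes with 50 or more sequences, 90.4% had a lower share of 29 to 32 nt than Dazl. Gfra1 had 26% (17.6 to 36.0%), and Zbtb16, with nearly as many sequences as Dazl, 18.3% (14.0 to 23.3%).

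**Figure D5:**
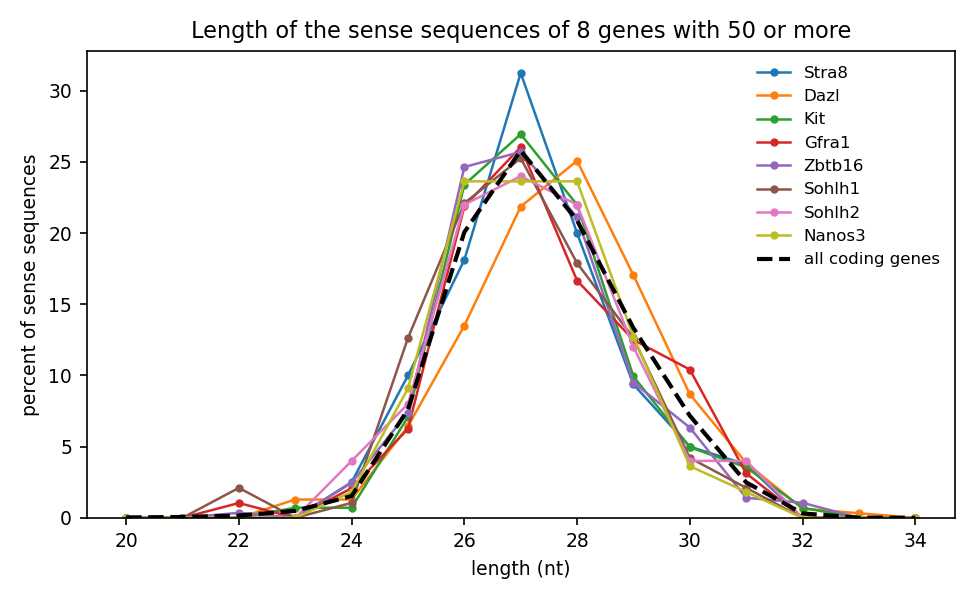
Percent of sense sequences at each length from 20 to 34 nt for the 8 genes with at least 50 sense sequences (lines) and for all protein-coding genes (dashed). Most genes peak at 27 nt, and Dazl is shifted to the right, with its maximum at 28 nt.

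Adenine at position 10, the mark of piRNAs made by the amplification cycle between sense and antisense partners, was found in 30.9% of sense sequences of 24 to 32 nt (28.3 to 33.6%). Positions 9 and 11 had 33.4% and 28.0%, and all protein-coding genes had 32.1% at position 10. Kit had 41.4% (33.2 to 50.1%) and Dazl 33.3%, and both had 0 antisense sequences. Nanos2, the gene with most antisense sequences, had 5.88% on 17 sense sequences (0.149 to 28.7%). The values given for positions 9 and 11 are those of the 9 genes together. Each 5′ end was listed with 1.44 different 3′ ends on average over the 9 genes, from 1.26 in Kit to 1.61 in Sohlh1, against 1.42 over all protein-coding genes.

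Antisense sequences matched 3 of the 9 genes, against 30% of protein-coding genes, and made up 1.47% of their exon matches (0.872 to 2.31%), against 3.83% over all protein-coding genes. Nanos2 had 13, beside 17 sense sequences, Gfra1 had 4 and Zbtb16 1. At least 10 antisense sequences were found on 4.56% of protein-coding genes. All 18 started with U.

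Nanos2 encodes an RNA-binding protein that keeps spermatogonial stem cells, and it was the only one of the 9 genes with nearly as many antisense as sense sequences over its exons, here a single exon of 1563 nt. The antisense sequences lay between 19572962 and 19574144 of chromosome 7, 1 over the start of the coding sequence and 12 over the 3′ untranslated region. The noncoding gene Gm45058 is annotated on the opposite strand there, and 5 of the 13 were sense to its exon. The other 8, at 19573779 and beyond, matched no annotated sense transcript. Of the 17 sense sequences 11 were in turn antisense to Gm45058. In all, 4 of the antisense sequences are forms of a single 5′ end, at 19573815 on the minus strand, and are shown with the most used sense 5′ end of Nanos2 and the antisense sequence that overlaps it, first base in capitals.
Nanos2 antisense, 29 nt: Tgaaaaaaggtgaagatagatggatggtc
Nanos2 antisense, 27 nt: Tgaaaaaaggtgaagatagatggatgg
Nanos2 antisense, 26 nt: Tgaaaaaaggtgaagatagatggatg
Nanos2 antisense, 25 nt: Tgaaaaaaggtgaagatagatggat
Nanos2 sense: Tgacatgtggagagactactttaacctg
Nanos2 antisense over it: Tagtctctccacatgtcaaagggcggt

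The forms of the first 4 lines differ only at the 3′ end. The last pair (sense chr7:19572971-19572998, antisense chr7:19572962-19572988) overlaps by 18 nt between 5′ ends. Among the sense and antisense sequences of the 9 genes, 7 pairs overlapped by 1 to 20 nt between 5′ ends, all in Gfra1 and Nanos2, and 0 of them by the 10 nt of the amplification cycle. With so few antisense sequences the absence of a 10-nt pair is not informative, and members of a pair may come from different libraries.

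The 4 antisense sequences of Gfra1 lay at its 5′ end, between 58529738 and 58530185 of chromosome 19, and 1 was found over the 5′ untranslated region of Zbtb16 (chr9:48643906-48643933, plus strand). At the other end of Gfra1, 10 of its 96 sense sequences were antisense to the noncoding gene Gm16277, which itself had no sense sequence.

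Sequences between the exons were rare. Over the 8 genes with introns, 1197 sequences matched exons on either strand and 380 others were listed between the first and last match of the genes. Per kb, exons had 56.0 times as many (49.9 to 63.0), and 104 times without Nanos3. Stra8 had 88.7 per kb in exons and 0.403 outside them, Dazl 81.4 and 0.288, and Sohlh2 21.2 and 0.117. The lengths outside exons are those of the whole gene and come from the annotation, not from the build of the list. The counts cover only the span between first and last match. For Sohlh2 that span is 20704 nt, whereas the gene measures 27930 nt, so its 0.117 per kb is a lower bound. Strand was read from overlapping neighbours, where these allowed a call. Among called sequences whose strand was also known from an exon match, 1096 of 1096 came out right. Sequences without a call are not in that number.

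In the long genes the sequences outside exons gathered towards the 5′ end. In Kit 48 of 52 lay within 20 kb of the first match, which is 24.5% of the span, in Zbtb16 40 of 91 in 11% of the span, and in Gfra1 14 of 37 in 9.09%. They started with U in 78.4%, 79.1% and 78.4%, next to 66.4%, 77.7% and 81.1% of the sense sequences of these genes. Most of those outside exons had no strand call, 31 of 52 in Kit, 69 of 91 in Zbtb16 and 33 of 37 in Gfra1. On the opposite strand lay 3, 2 and 2, so these shares are not those of sense sequences alone.

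Nanos3 was the exception, with 183 sequences outside its exons (17.3 per kb) beside 55 sense to them. Of these, 165 lay upstream of the coding transcript, between 86700460 and 86708741 of chromosome 8, in a stretch that only a noncoding Nanos3 transcript spans and where the annotation places the microRNA genes Mir181c and Mir181d. On the strand opposite to Nanos3 there were 97, of which 87 started with U, 29 lay on the strand of Nanos3, of which 21 started with U, and 39 had no strand call. Among the sequences outside the exons of Nanos3, 6 matched the microRNA genes, and 12 opposite-strand pairs overlapped by 1 to 20 nt between 5′ ends, 0 of them by 10 nt. These 183 match no exon of Nanos3 and are not in the counts of the gene given above.

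None of the 9 genes lay in the 100 windows of 20 kb with most sequences. The best placed, a window with Zbtb16 matches, ranked 623 of 62069.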

How the data were processed

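Small RNAs of 3 immunoprecipitates (1 library per group) were used as a single table. The authors deposited a list of distinct sequences, each with chromosome, start and end, on NCBI mouse build 37 per the file headers (mm9 per the submitters' processing notes). This other kind of value, a listed sequence, is neither a count nor a level, and depth is unknown. RNA of about 28 to 30 nt was gel-eluted, per the labels. No source used here names the aligner, the mismatches allowed or the treatment of repeated sequences. The comparisons between groups could not be made.

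Sequences were searched exactly (seed 18 nt, whole length, both strands) in GENCODE vM21 transcripts, since that annotation is on another build, with Python 3.11.15 and numba 0.67.0; the search was tested on simulated data. Genes, lists and measures were chosen with earlier results of these data known, and genes of the related lists were named as the 3 highest and 2 lowest. Intervals are Poisson (densities) or Clopper-Pearson (shares). Alternatives counted 5′ ends once, used 24 to 32 nt only, left out shared sequences or Dazl, weighed genes equally or changed the transcript. None of the 9 genes shared sequences with another member, and 26 sequences also matched an overlapping noncoding gene.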

Additional observations from a re-analysis of the deposited data

How the results depend on the processing

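Of 40 alternative values 28 stayed inside the 95% interval of the main value (for the median density that of Zbtb16, the middle gene; for sequences per 5′ end that of the share of distinct 5′ ends, inverted), 12 moved outside it and 0 changed sign, which shares cannot do. Counting each 5′ end once gave a median density of 37.9 per kb (53.8 otherwise) and 63.1% U first (69.3%). Without Dazl the median density was 37.5 per kb, the share of 29 to 32 nt 19.2% (22.0%), the 3′ untranslated share 52.0% (57.0%), the share followed by U 21.3% (23.8%), the exon to intron ratio 47.0 (56.0), the head-to-tail ratio 0.785 (1.08) and the ratio of 3′ untranslated to coding density 1.25 (1.41). With each gene weighing the same, the share of 29 to 32 nt was 19.4% and the 3′ untranslated share 50.9%. Without Nanos3 the exon to intron ratio was 104. That last setting and both settings of the 3′ untranslated to coding ratio were chosen after seeing the data. No paired analysis was possible because each group has 1 library and the list names none. Unknown read numbers and the pooled list limit all values, and Nanos2, with 17 sense sequences, has the widest interval for the share starting with U.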
